A study of Mus musculus with 16 samples.

Results

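The response of wild-type (WT) mouse heart slices to a week of low oxygen was measured by RNA-seq, as treated against untreated slices. The comparison holds 8 of the 16 libraries of the series, and its members are the 22232 genes, of 55487 counted, whose raw counts summed to at least 10 over those 8 libraries. Of these, 15611 are annotated as protein-coding. Slices of C57Bl6/J hearts from male mice aged 8 weeks, without apex and base, were kept in serum-containing medium. The 4 untreated libraries are from slices kept for 14 days at 21% oxygen (normoxia). The 4 treated libraries are from slices kept for 7 days at 3% oxygen (hypoxia) and then for 7 days at 21% oxygen, so all RNA was taken after a week of normoxia. Slices of Swhtr null mice, homozygous for a transcriptional stop signal in the lncRNA gene Swhtr, went through the same schedule (4 untreated and 4 treated libraries) and add to the estimate of the spread between libraries in the edgeR fit and to DESeq2 where it is fitted to 16 libraries, and their response is set beside that of WT slices. Slices came from 4 mice per genotype, from 2 litters, so the 8 WT libraries are not from 8 different mice. Replicate slices went to either condition, so libraries of both treatments are likely to share mice. The labels do not say which mouse gave which library. The main fit treats the libraries as independent, and the p-values below measure only the spread between these libraries.

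Cells sense oxygen through prolyl hydroxylases of the EGLN family, which mark the alpha subunits of hypoxia-inducible factors (HIFs) for destruction. When oxygen falls, the alpha subunits persist, pair with ARNT and switch on genes for glycolysis, glucose uptake, angiogenesis, mitophagy and matrix crosslinking. After return to normoxia, HIF is degraded rapidly, and the transcripts of its targets decay with their own half-lives. Reoxygenated tissue is also known for a quick wave of immediate early genes, which encode AP-1, EGR and other transcription factors, and for changes in mitochondria and in the matrix made by fibroblasts.

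The promoters shown here belong to genes that led the comparison or to hypoxia-inducible and immediate early genes. They hold the HIF core motif ACGTG, the CRE half-site TGACG or TGANTCA, a loose form of the AP-1 site in which N is any base. Of 105 such genes, chosen with their results known, 72 were matched by symbol to RefSeq promoters (GRCm38.p6). The 6 with the smallest p among the 40 (55.6%) with a motif are given as the 250 bases before a single RefSeq start of transcription. Other annotated starts can differ. The GENCODE genes of Ddit4, Fosb and Ier3 begin within their windows. The first bases after the Chga start were not found near the start of a GENCODE transcript of that gene. Each is read 5′ to 3′ in the direction of the gene, with motif matches on either strand in capitals.
Ddit4 (chr10:59951771-59952020, minus strand): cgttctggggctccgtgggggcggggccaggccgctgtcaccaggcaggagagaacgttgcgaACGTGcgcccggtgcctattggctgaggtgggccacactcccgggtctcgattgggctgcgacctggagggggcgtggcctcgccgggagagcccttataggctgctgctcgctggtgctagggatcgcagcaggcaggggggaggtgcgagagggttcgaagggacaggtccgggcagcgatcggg
Fosb (chr7:19310046-19310295, minus strand): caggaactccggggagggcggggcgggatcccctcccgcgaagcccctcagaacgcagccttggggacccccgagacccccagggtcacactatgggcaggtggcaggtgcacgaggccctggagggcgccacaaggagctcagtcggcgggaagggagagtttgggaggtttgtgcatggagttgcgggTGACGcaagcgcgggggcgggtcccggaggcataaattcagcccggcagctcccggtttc
Fos (chr12:85473640-85473889, plus strand): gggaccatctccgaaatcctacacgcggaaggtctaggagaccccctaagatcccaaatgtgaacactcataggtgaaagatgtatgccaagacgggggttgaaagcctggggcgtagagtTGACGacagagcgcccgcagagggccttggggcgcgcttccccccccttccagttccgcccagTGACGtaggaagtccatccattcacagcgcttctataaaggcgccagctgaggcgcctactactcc
F10 (chr8:13037058-13037307, plus strand): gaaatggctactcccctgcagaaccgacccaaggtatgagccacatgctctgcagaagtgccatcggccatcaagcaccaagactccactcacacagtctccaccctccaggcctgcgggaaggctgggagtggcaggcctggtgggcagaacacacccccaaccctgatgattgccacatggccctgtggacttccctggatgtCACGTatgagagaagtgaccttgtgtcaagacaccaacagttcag
Ier3 (chr17:35821463-35821712, plus strand): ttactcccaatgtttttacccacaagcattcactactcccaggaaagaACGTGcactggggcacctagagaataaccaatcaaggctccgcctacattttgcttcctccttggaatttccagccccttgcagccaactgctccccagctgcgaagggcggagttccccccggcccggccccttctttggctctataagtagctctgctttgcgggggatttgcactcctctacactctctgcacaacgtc
Chga (chr12:102554691-102554940, plus strand): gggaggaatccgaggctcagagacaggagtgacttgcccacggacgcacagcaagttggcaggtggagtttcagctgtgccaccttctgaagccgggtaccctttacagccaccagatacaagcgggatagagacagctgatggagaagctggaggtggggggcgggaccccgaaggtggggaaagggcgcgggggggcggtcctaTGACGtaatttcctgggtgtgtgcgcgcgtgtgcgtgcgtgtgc
The HIF core motif stood 187 bases before the start of Ddit4, 202 before that of Ier3 and, on the opposite strand, 45 before that of F10. The CRE half-site stood 60 bases before the start of Fosb, 129 and 66 before that of Fos and 44 before that of Chga. Over all 32851 promoters of that length, 16.6% held ACGTG, 17.8% TGACG and 6.75% TGANTCA, and 34.4% held at least 1 of them. The motifs ACGTG and TGACG overlap where TGACGTG occurs. A match is a run of letters and not evidence of binding.

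The responses in WT slices were small. Library totals were 18653443 to 21633240 counts (median 20006521) in untreated and 21949355 to 24380131 counts (median 23180646.5) in treated slices, so every treated library was deeper than every untreated library, and the part of depth in the results was not tested. On the first principal component, which held 32.6% of the variance, the treatments were not separated. On the second (18.9%) the treated libraries were at -1.3, -17.5, -4 and -4.1 and the untreated ones at -4.8, 15.6, 11.7 and 4.3. There only untreated library 1 lay among the treated libraries. Among the 14211 genes with a mean of at least 1 CPM (counts scaled to the TMM library size) over the 8 libraries, 97.9% stayed within a log2 fold change of 0.58 in either direction, 129 lay above and 171 lay below. The median size of the log2 fold change of these genes was 0.078, against a median standard error of 0.114. A gene was called when its Benjamini-Hochberg adjusted p by edgeR's quasi-likelihood test was under 0.05 and its log2 fold change exceeded 0.58 in size. By that rule 0 genes (0% of 22232) were called, and 1 gene, Smad7, had an adjusted p under 0.05 (0.0045%). At an unadjusted p under 0.05 there were 1026 genes, of which 537 were higher (2.42%) and 489 were lower (2.2%) in treated slices, and these shares are the background for the gene groups below. The ranges of the treatments were apart for 450 higher genes (2.02%) and for 423 lower genes (1.9%). DESeq2, the test of the study, called 9 genes (0.0405%) when fitted to all 16 libraries, 3 higher and 6 lower. On the 8 WT libraries alone it called 31 genes (0.139%), 14 higher and 17 lower, and 7 genes were called by both fits. With the replicate number within genotype as a block in edgeR on all 16 libraries, 15 genes were called.

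**Figure D1:**
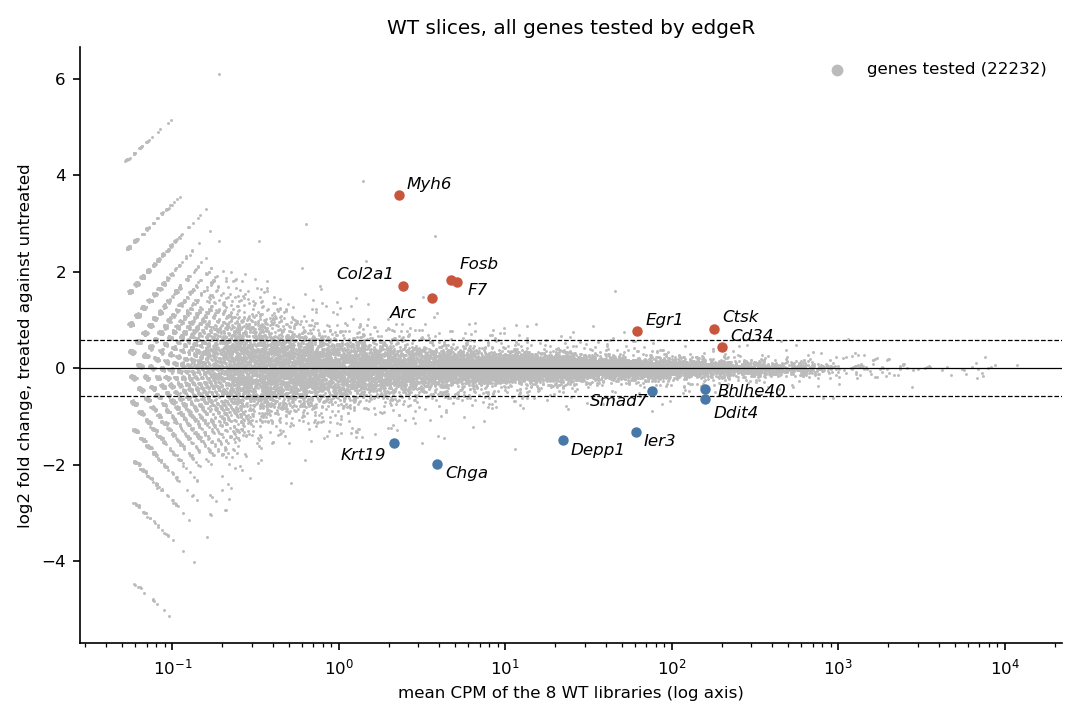
Treated over untreated WT slices as log2 fold change (y axis) by mean CPM of the 8 WT libraries (x axis, log scale), 1 point per gene, with dashed lines at the fold threshold of 0.58. The cloud narrows with level and stays within the lines for 97.9% of genes above 1 CPM, while the marked genes lie at or beyond its edge (red higher, blue lower in treated slices).

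Smad7 (ENSMUSG00000025880, chr18:75367529-75395935, GRCm38), an inhibitory SMAD that is induced by TGF-beta and blocks its receptor, was the gene with the smallest p and fell by 0.48 on the log2 scale (standard error 0.06, adjusted p = 0.00716 by edgeR). Its levels were 82.4, 88.6, 94.9 and 89.2 CPM untreated and 61.1, 64.7, 66 and 62.9 CPM treated, and the groups were far apart relative to the spread in each. The adjusted p stayed under 0.05 by limma voom (0.0143) and DESeq2, but it was 0.0688 without untreated library 3 and 0.0754 without treated library 1, with log2 fold changes of -0.45 and -0.46. Ddit4 (chr10:59949669-59951834, GRCm38), which encodes the stress-induced mTORC1 inhibitor REDD1, was at 154, 193, 229 and 196 CPM untreated and 124, 118, 115 and 139 CPM treated. Every treated library was below every untreated one, and the log2 fold change was -0.64 (standard error 0.10, adjusted p = 0.0618 by edgeR, 9.41e-05 by DESeq2 on 16 libraries and 9.67e-06 by DESeq2 on 8). Bhlhe40, a transcriptional repressor that is a target of HIF and of the clock, was at 174, 169, 195 and 194 CPM untreated and 128, 126, 130.1 and 154 CPM treated. The groups did not overlap, treated library 4 was nearest to the untreated range, and the log2 fold change was -0.44 (standard error 0.08, adjusted p = 0.154 by edgeR, 0.000732 by DESeq2 on 16 libraries and 9.75e-05 by DESeq2 on 8). In bulk RNA such a difference can be fewer cells of a type or less RNA per cell, and these cannot be told apart.

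**Figure D2:**
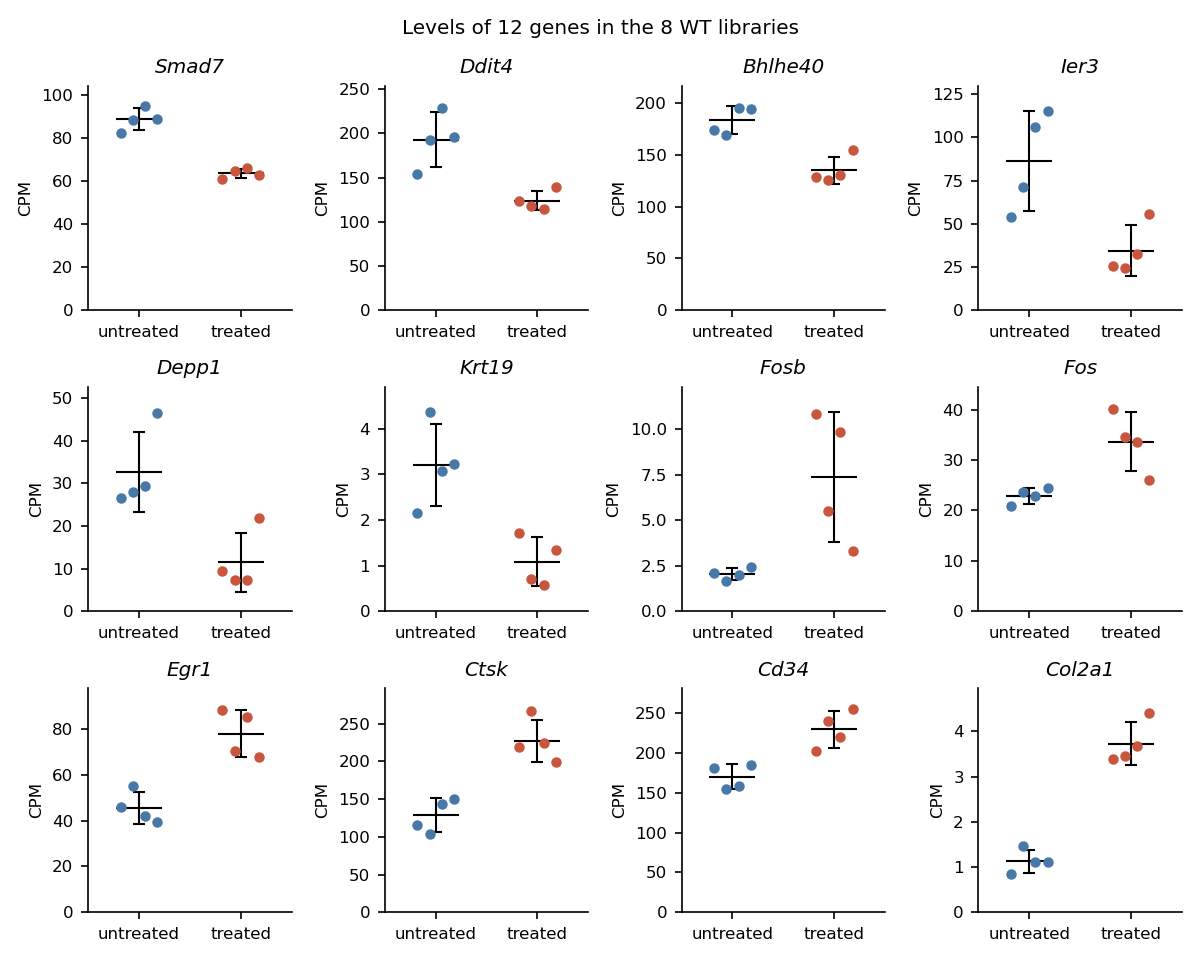
CPM of 12 genes (y axes, from 0) in the 4 untreated (blue) and 4 treated (red) WT libraries, 1 point per library, with horizontal lines at the mean and bars of ± SD. For Smad7, Ddit4, Bhlhe40, Depp1 and Krt19 every treated point lies below the untreated points, for the genes from Fosb to Col2a1 every treated point lies above them, and for Ier3 the groups touch at 55.6 and 54.1 CPM.

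Hypoxia-inducible genes outside glycolysis were lower after reoxygenation than in slices kept throughout in normoxia. All 35 genes of the list had a negative log2 fold change, with a median of -0.24, beside a median of 0.005 and 10827 lower of 22232 over all genes tested. Of the 35 genes, 0 passed the adjusted p and 11 (31.4%, against 4.61% of all genes tested in both directions) had an unadjusted p under 0.05, all lower. Treated libraries were wholly below the untreated ones for 6, beside 1.9% of all genes tested. Summed over the list, the untreated libraries were at 7272, 7978, 8703 and 9215 CPM and the treated libraries at 6347, 6309.8, 7195 and 7643 CPM. The sums overlapped, and in each group libraries 3 and 4 were above libraries 1 and 2. Ier3, a stress-induced early response gene, had the lowest value, at 54.1, 71.1, 106 and 115 CPM untreated and 25.7, 24.5, 32.7 and 55.6 CPM treated (log2 fold change -1.32, standard error 0.30, adjusted p = 0.905 by edgeR, 0.0278 by DESeq2 on 16 libraries and 0.0885 by DESeq2 on 8). Ankrd37, an ankyrin repeat gene induced by HIF, was at 22.9, 27.2, 31.5 and 35.2 CPM untreated and 18.1, 15.7, 13.9 and 20.6 CPM treated with no overlap (log2 fold change -0.78, adjusted p = 0.999 by edgeR, 0.209 by DESeq2 on 16 libraries and 0.000298 by DESeq2 on 8). Lox, the lysyl oxidase that crosslinks collagen and elastin, was at 1052, 1197, 1120.3 and 1151 CPM untreated and 783, 804, 1018 and 994 CPM treated, again with no overlap (log2 fold change -0.33, unadjusted p = 0.00112).

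**Figure D3:**
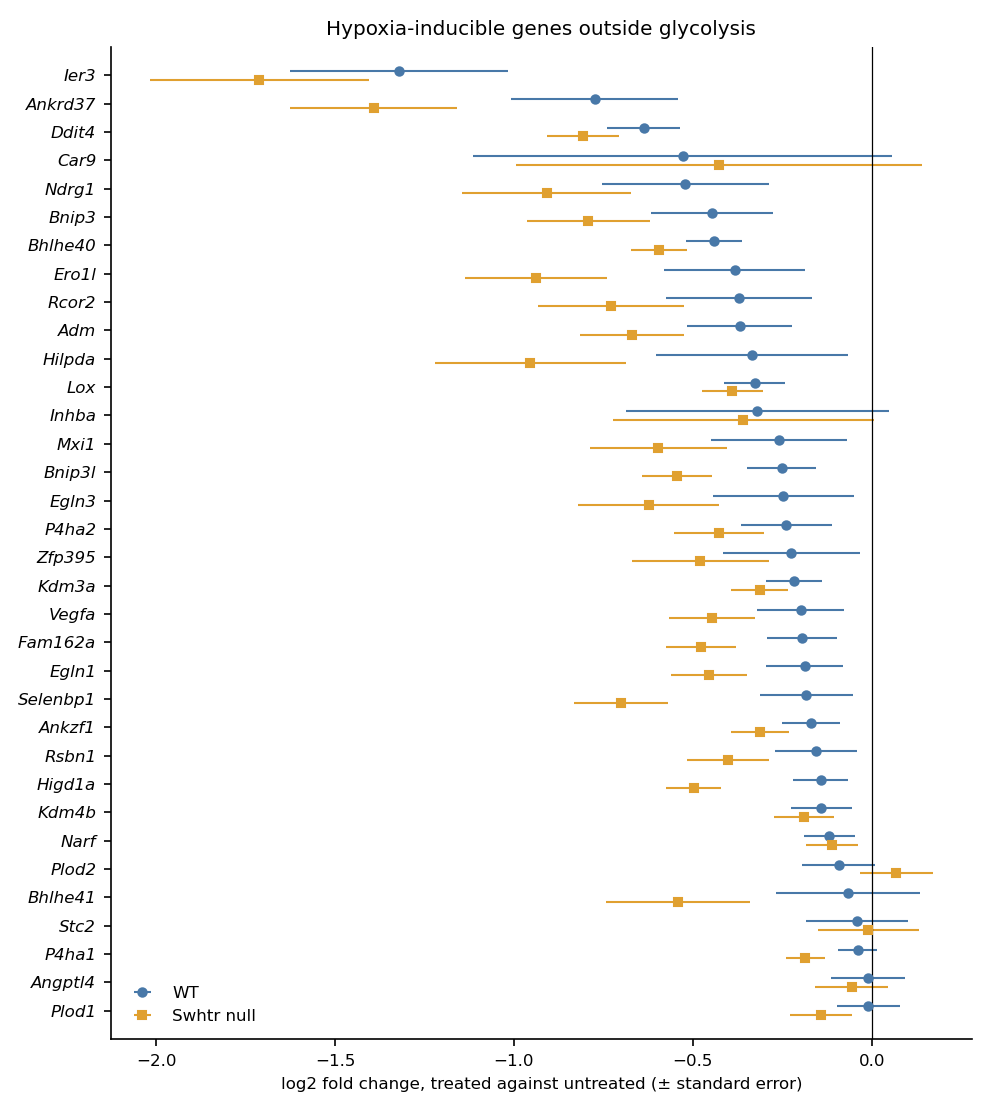
Treated over untreated slices as log2 fold change (x axis, bars of ± standard error) for 34 of the 35 hypoxia-inducible genes outside glycolysis (y axis) in WT (blue circles) and Swhtr null slices (orange squares). All WT points lie left of 0, from -1.32 for Ier3 to -0.01 for Plod1, and the Swhtr null points lie mostly further left.

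Among the remaining targets, the mitophagy receptors Bnip3 (log2 fold change -0.45, standard error 0.17) and Bnip3l (-0.25, 0.10), the vasodilator peptide gene Adm (-0.37, 0.15), Ndrg1 (-0.52, 0.23) and the histone demethylase gene Kdm3a (-0.22, 0.08) were lower at an unadjusted p under 0.05. Kdm3a was at 90.6, 88.6, 95.1 and 93.4 CPM untreated and 74, 77.2, 78 and 86.9 CPM treated, without overlap. Vegfa, the main angiogenic ligand, was at 651, 777, 890.3 and 891 CPM untreated and 716, 655, 722 and 703 CPM treated, and its groups overlapped (log2 fold change -0.20, standard error 0.12, unadjusted p = 0.117). The procollagen hydroxylase genes P4ha1 (-0.04, 0.05), Plod1 (-0.01, 0.09) and Plod2 (-0.09, 0.10), and the lipase inhibitor gene Angptl4 (-0.01, 0.10), differed by less than their standard errors. Of 26 genes of glycolysis and of glucose and lactate transport, 3 were higher and 23 lower, with a median of -0.12. Of them 0 passed the adjusted p, and 3 were lower at an unadjusted p under 0.05 (11.5%, against 4.61% of all genes tested in both directions). These were Pdk1, the kinase that shuts pyruvate dehydrogenase, at 153, 155, 181 and 190.2 CPM untreated and 150.3, 127, 138 and 149.9 CPM treated (log2 fold change -0.27, standard error 0.09), the lactate exporter gene Slc16a3 at 353, 365, 417 and 445 CPM untreated and 297, 284, 335 and 376 CPM treated (-0.29, 0.10), and the enolase gene Eno1 (-0.15, 0.07). The Pdk1 groups met without overlap (150.3 against 153 CPM) and those of Slc16a3 overlapped. Gapdh, a glycolytic gene often used as a reference, was at 2189, 2247, 2490.5 and 2624 CPM untreated and 2092, 2076, 2175 and 2282 CPM treated (log2 fold change -0.15, standard error 0.09).

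HIF subunits and oxygen sensors had a median near that of all genes. Of 15 HIF subunits, hydroxylases and cofactors, 4 were higher and 11 lower, with a median of -0.04, 0 past the adjusted p and 1 at an unadjusted p under 0.05. That one was Epas1, which encodes HIF-2 alpha, at 232, 178, 188 and 195 CPM untreated and 200, 261, 247 and 216 CPM treated with overlap (log2 fold change 0.22, standard error 0.10). Hif1a was at 152, 149, 157 and 146 CPM untreated and 135, 140.5, 149.6 and 139.9 CPM treated (log2 fold change -0.10, standard error 0.08). The hydroxylase genes Egln1 and Egln3, which HIF induces, had log2 fold changes of -0.19 and -0.25, while that of Egln2 was 0.05 (standard errors 0.11, 0.20 and 0.07). Of 18 ligands and receptors of the VEGF and angiopoietin families, 9 were higher and 9 lower, with a median of 0.01 and 1 at an unadjusted p under 0.05. Vegfc, a lymphangiogenic ligand, was at 21.8, 25, 23.8 and 19 CPM untreated and 16.5, 17.1, 18.8 and 18.3 CPM treated without overlap (log2 fold change -0.34, standard error 0.10).

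Immediate early genes went both ways. Of 33 genes (Ier3 among them), 11 had an unadjusted p under 0.05 (33.3%, against 4.61% of all genes tested), 8 upward and 3 downward. Treated libraries were wholly above the untreated ones for 7 and wholly below for 1, beside 2.02% and 1.9% of all genes tested. By edgeR 0 passed the adjusted p. Fosb, an AP-1 subunit, was at 2.1, 1.68, 2.01 and 2.46 CPM untreated and 10.8, 5.53, 9.84 and 3.32 CPM treated. All 4 treated libraries were above the untreated ones and spread widely, and the estimate of 1.83 (log2, standard error 0.33) had an adjusted p = 0.182 by edgeR, 0.00019 by DESeq2 on 16 libraries and 2.52e-05 by DESeq2 on 8. Its partner gene Fos was at 20.8, 23.6, 22.9 and 24.5 CPM untreated and 40.2, 34.6, 33.6 and 26 CPM treated (log2 fold change 0.55, standard error 0.13), with treated library 4 just above the untreated range. Egr1, a zinc finger transcription factor, was at 45.8, 54.9, 41.8 and 39.4 CPM untreated and 88, 70.4, 85.1 and 67.7 CPM treated (log2 fold change 0.78, standard error 0.26, adjusted p = 0.999 by edgeR, 0.292 by DESeq2 on 16 libraries and 2.21e-07 by DESeq2 on 8). The treated libraries also stood wholly above the untreated ones for Ier2 (log2 fold change 0.37), for Arc (1.47), for the nuclear receptor gene Nr4a1 (0.88) and for Myc (0.24). Klf10, a TGF-beta-inducible zinc finger gene, was at 74, 67.8, 72.2 and 82 CPM untreated and 57.3, 56.8, 62.9 and 63 CPM treated and had no overlap in the other direction (log2 fold change -0.30, standard error 0.08). The AP-1 gene Fosl1 was also lower at an unadjusted p under 0.05 (log2 fold change -0.47), and Jun stood at a log2 fold change of -0.002 (standard error 0.11).

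No transcript made inside mitochondria passed the adjusted p. All 13 protein-coding genes of the mitochondrial genome had a positive log2 fold change, with a median of 0.27. Of these, 7 had an unadjusted p under 0.05 (53.8%, against 4.61% of all genes tested). The 13 genes lie on the same small genome and are not independent of each other, so their counts are given as a description. The groups did not overlap for 3, all higher, beside 2.02% of all genes tested. The mt-Nd2 gene, for a subunit of complex I, was at 681, 639, 565 and 597 CPM untreated and 816, 849, 772 and 682 CPM treated (log2 fold change 0.33, standard error 0.10). The gene mt-Co1, for complex IV, was at 6318, 6221, 6433 and 6916 CPM untreated and 6919, 7218, 7180 and 6403 CPM treated with overlap (0.10, 0.08). Treated library 4 was the lowest treated library for both. Summed over the 13 genes, the untreated libraries were at 16381, 16518, 16058 and 16690.2 CPM and the treated ones at 19350, 19955, 19104 and 16444 CPM. The sums overlapped, since treated library 4 lay within the untreated range. Of 37 nuclear-encoded subunits of the same chain, 29 were higher and 8 lower, with a median of 0.04 and 2 higher at an unadjusted p under 0.05. Cytosolic ribosomal protein genes were lower for 41 of 43 members, with a median of -0.09. Of them, 6 were lower at an unadjusted p under 0.05 (14%, against 4.61% of all genes tested in both directions). The groups had no overlap for 3, all lower, beside 1.9% of all genes tested, and 0 passed the adjusted p. Rps6, a subunit phosphorylated downstream of mTORC1, was at 608, 659.8, 667 and 675 CPM untreated and 571, 566, 577 and 602 CPM treated without overlap (log2 fold change -0.17, standard error 0.06). Of 44 genes of the cell cycle and mitosis, 37 were higher with a median of 0.19, but a single one, the mitotic kinase gene Aurka, had an unadjusted p under 0.05. Aurka was at 7.5, 8.09, 8.55 and 6.75 CPM untreated and 10.9, 13.6, 11.9 and 7.61 CPM treated, and the groups overlapped (log2 fold change 0.51, standard error 0.18).

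**Figure D4:**
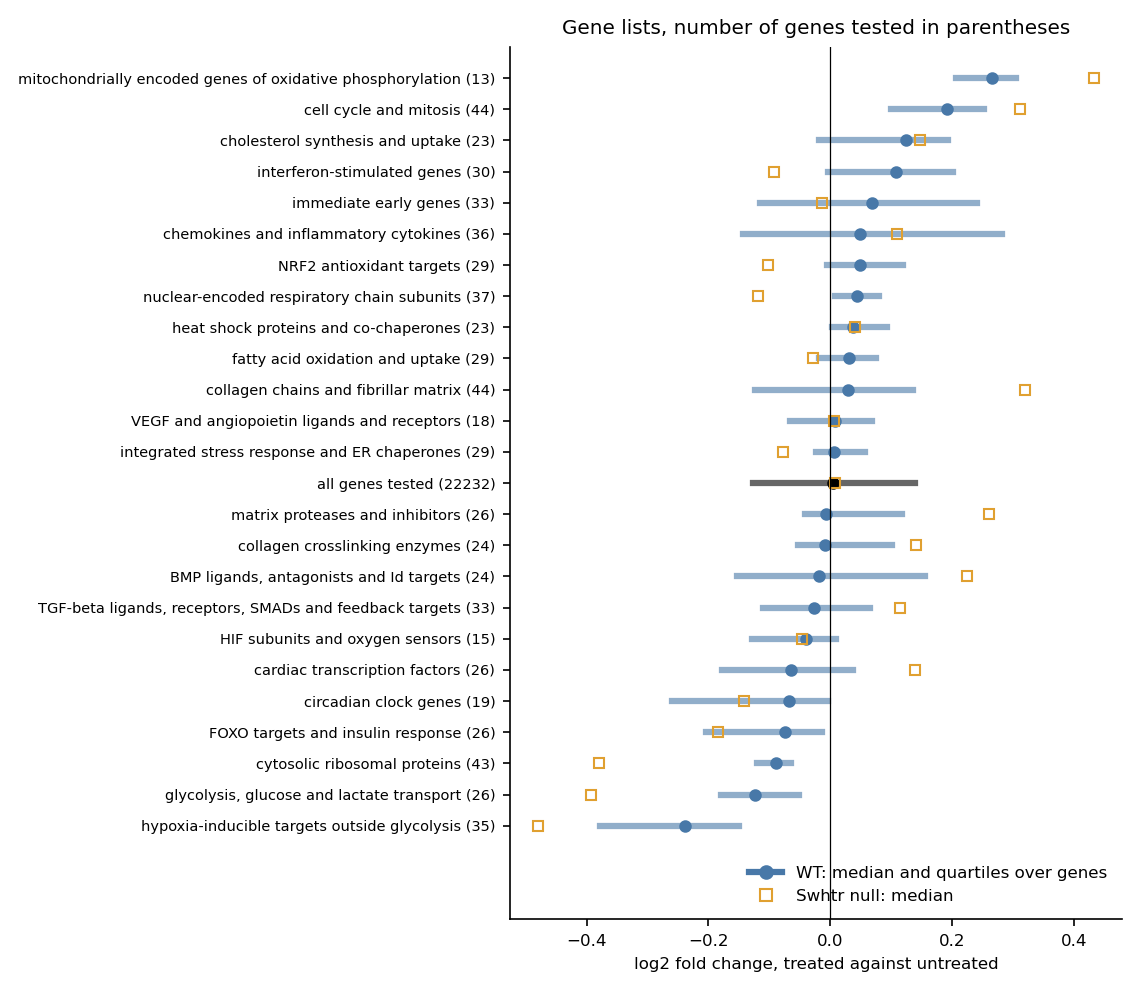
Median log2 fold change, treated over untreated (x axis), for each pathway list (y axis, genes tested in parentheses), with filled circles and bars for the WT median and quartiles over genes and open squares for the Swhtr null median. The WT medians run from -0.24 for hypoxia-inducible genes to 0.27 for mitochondrially encoded genes, and most of the other pathway lists lie near the median of all genes tested (black).

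Matrix and growth factor lists had medians near 0, with members on either side. Of 33 ligands, receptors, SMADs and feedback targets of TGF-beta signaling, the median was -0.03, 1 was higher and 3 were lower at an unadjusted p under 0.05, and Smad7 alone passed the adjusted p. The share at the unadjusted p was 12.1%, against 4.61% of all genes tested. The ligand gene Tgfb2 was at 26, 23.1, 19.1 and 17.3 CPM untreated and 27.4, 30.9, 24.6 and 24.7 CPM treated with overlap (log2 fold change 0.33, standard error 0.15). Of 24 BMP ligands, antagonists and Id targets the median was -0.02. Of these, 3 (12.5%, against 4.61% of all genes tested) had an unadjusted p under 0.05, 1 upward and 2 downward. Among them was Fstl3, a binder of activins, at 16.7, 18.9, 17.7 and 17.4 CPM untreated and 11.8, 14.6, 16.5 and 15.3 CPM treated (-0.28, 0.10). Of 44 collagen chains and other fibrillar matrix genes, 7 had an unadjusted p under 0.05 (5 upward, 2 downward), and the median was 0.03. The share at that p was 15.9%, against 4.61% of all genes tested. Treated libraries were wholly above the untreated ones for 6 of the 44 and wholly below for 2, beside 2.02% and 1.9% of all genes tested. Vcan, a large proteoglycan, was at 234, 205, 204 and 177 CPM untreated and 265, 288, 260.2 and 235 CPM treated without overlap (log2 fold change 0.35, standard error 0.10). Col14a1, a collagen that associates with fibrils, was at 367, 332, 376 and 339 CPM untreated and 307, 261, 289 and 304 CPM treated, without overlap in the other direction (-0.28, 0.09). The 24 genes for collagen crosslinking had a median of -0.01, with 1 higher and 1 lower (Lox) at an unadjusted p under 0.05. The 26 matrix proteases and inhibitors had a median of -0.01 and 0 members at that p. Ctsk, the collagen-degrading cathepsin K, was not on these lists and was at 116, 104, 144 and 150.1 CPM untreated and 219, 267, 224 and 199 CPM treated. It was higher in every treated library, by 0.82 on the log2 scale (standard error 0.16, adjusted p = 0.399 by edgeR, 0.000518 by DESeq2 on 16 libraries and 4.84e-08 by DESeq2 on 8). Col2a1, the fibrillar collagen of cartilage, was at 0.84, 1.47, 1.12 and 1.11 CPM untreated and 3.38, 3.46, 3.67 and 4.41 CPM treated (log2 fold change 1.71, standard error 0.39, adjusted p = 0.905 by edgeR, 0.0168 by DESeq2 on 16 libraries and 4.84e-08 by DESeq2 on 8). By edgeR on the 8 WT libraries its adjusted p was 0.00874. Lrrc32, which tethers latent TGF-beta to the cell surface, was at 159, 177, 171 and 170.3 CPM untreated and 112, 120.1, 143 and 152 CPM treated, without overlap (-0.36, 0.10).

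Stress and metabolic lists had medians near that of all genes, but the FOXO and clock lists held many lower members at an unadjusted p under 0.05. The 23 heat shock proteins and co-chaperones had a median of 0.04 with 1 gene at an unadjusted p under 0.05, the co-chaperone gene Bag3, at 87.3, 86.3, 80.1 and 87.5 CPM untreated and 92.9, 100.5, 98.1 and 93.7 CPM treated without overlap. The 29 genes of the integrated stress response and of ER chaperones had a median of 0.01 with 2 lower at that p, Ppp1r15a and Vldlr. The 29 NRF2 antioxidant targets had a median of 0.05 and the 29 genes of fatty acid oxidation and uptake one of 0.03, with 0 members at that p in both lists. The 23 genes of cholesterol synthesis and uptake had a median of 0.12, and Sqle, squalene epoxidase, was at 30.4, 33.2, 32.4 and 28.9 CPM untreated and 37.9, 37.7, 40.2 and 37.5 CPM treated without overlap (log2 fold change 0.30, standard error 0.11). Of 26 FOXO targets and insulin-response genes 20 were lower, 5 of them at an unadjusted p under 0.05, with a median of -0.07. The share at that p was 19.2%, against 4.61% of all genes tested in both directions. Depp1, a direct FOXO target, was at 26.5, 28, 29.3 and 46.6 CPM untreated and 9.56, 7.32, 7.38 and 21.9 CPM treated. Library 4 was the highest of each group, the groups did not overlap, and the log2 fold change was -1.50 (standard error 0.33, adjusted p = 0.905 by edgeR, 0.000853 by DESeq2 on 16 libraries and 0.0825 by DESeq2 on 8). Without treated library 4 it was -2.01, with an adjusted p = 0.00928 by edgeR. Ccng2, a cyclin that FOXO factors induce, was at 79.3, 81.1, 103 and 95.1 CPM untreated and 64.1, 66.9, 70.3 and 80.1 CPM treated and overlapped (-0.35, 0.10). Of 19 clock genes, 7 (36.8%, against 4.61% of all genes tested) had an unadjusted p under 0.05, all lower, with a median of -0.07. Rora, a nuclear receptor that activates clock genes, was at 65.1, 58.6, 66.9 and 64.2 CPM untreated and 54.6, 53.7, 57.6 and 56.4 CPM treated (log2 fold change -0.20, standard error 0.06). The repressor gene Per1 was at 37.9, 44, 42.9 and 43.7 CPM untreated and 32, 33.2, 37.7 and 37.1 CPM treated (-0.27, 0.10), both without overlap. Per1 is on both lists, and Bhlhe40 is counted among the clock genes too. The time of day of harvest is not given.

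Further genes that led the comparison were not named as members of these lists, and their place in these programs was not tested. Among those higher in every treated library, Slc25a25, a mitochondrial ATP carrier, was at 17, 15.8, 16.3 and 16.5 CPM untreated and 21.8, 21.2, 21.3 and 18.6 CPM treated (log2 fold change 0.34, standard error 0.07, adjusted p = 0.527 by edgeR, 0.0265 by DESeq2 on 16 libraries and 0.0524 by DESeq2 on 8). Nptxr, the neuronal pentraxin receptor, was at 6.25, 6.78, 7.99 and 7.42 CPM untreated and 11.2, 10.2, 10.3 and 10.3 CPM treated (0.56, 0.12, adjusted p = 0.538 by edgeR, 0.024 by DESeq2 on 16 libraries and 0.00575 by DESeq2 on 8). Naaa, a lysosomal amidase, had a log2 fold change of 0.54, the ubiquitin ligase gene Lnx2 one of 0.32, C1qtnf12 one of 0.26 and the Schlafen gene Slfn5 one of 0.26. Among those lower in every treated library, Gys1, muscle-type glycogen synthase, was at 85.4, 87.3, 105 and 101 CPM untreated and 73.2, 69.3, 75.5 and 80.6 CPM treated (-0.34, 0.09). Sik1, a salt-inducible kinase, was at 71.7, 65.1, 81.3 and 90 CPM untreated and 46.8, 46.2, 52.5 and 61.6 CPM treated (-0.57, 0.14). Chga, a protein of neuroendocrine granules, was at 9.76, 8.09, 2.99 and 4.1 CPM untreated and 1.99, 2.02, 0.917 and 1.39 CPM treated (log2 fold change -1.98, standard error 0.48, adjusted p = 0.905 by edgeR, 0.0254 by DESeq2 on 16 libraries and 6.77e-05 by DESeq2 on 8). Gabra3, a GABA receptor subunit (-0.70), and Fbxo44, an F-box gene (-0.73), had no overlap either. Gm37752 and Gm37087, both of 3309 bases and annotated close together on chromosome 3, were at 6.25 ± 1.43 CPM untreated and 2.29 ± 0.852 CPM treated and at 5.75 ± 1.35 CPM untreated and 2.16 ± 0.886 CPM treated (SD, n = 4), and with equal lengths and near-equal levels they may be copies that share reads.

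DESeq2 on the 8 WT libraries called several genes that missed the adjusted p by edgeR, many but not all of them for secreted or membrane proteins. The coagulation factor genes F7 and F10, which lie side by side on chromosome 8, were at 0.945, 2.05, 2.57 and 3.66 CPM untreated and 6.9, 8.95, 10 and 6.1 CPM treated and at 0.21, 0.315, 0.42 and 0.482 CPM untreated and 1.44, 0.745, 0.959 and 1.6 CPM treated. All treated libraries were above all untreated ones for both (log2 fold changes 1.78 and 1.71, standard errors 0.55 and 0.43). F7 had an adjusted p = 0.999 by edgeR, 0.353 by DESeq2 on 16 libraries and 6.01e-06 by DESeq2 on 8. F10 had an adjusted p = 0.905 by edgeR, 0.139 by DESeq2 on 16 libraries and 0.0444 by DESeq2 on 8. Dio2, the deiodinase that activates thyroid hormone, was at 20.3, 21.9, 26.7 and 25.1 CPM untreated and 43.8, 47.2, 50.7 and 31.6 CPM treated (log2 fold change 0.88, standard error 0.25, adjusted p = 0.999 by edgeR, 0.0983 by DESeq2 on 16 libraries and 1.43e-06 by DESeq2 on 8). Slc6a12, a betaine and GABA transporter, was at 3.46, 3.26, 4.48 and 5.59 CPM untreated and 9.56, 8.24, 7.34 and 6.47 CPM treated (0.91, 0.28, adjusted p = 0.999 by edgeR, 0.353 by DESeq2 on 16 libraries and 0.00391 by DESeq2 on 8). Both had treated libraries wholly above the untreated ones. Slc36a2, an amino acid transporter, had a log2 fold change of 0.67 and overlapped. Genes called in the other direction included Ano1 (log2 fold change -1.02), Cd5l (-1.28), Gpr34 (-1.19), Clic6 (-0.67), Sdk2 (-0.87) and Fgf11 (-0.59), none of them called on 16 libraries, at untreated means of 2.96 (Gpr34) to 30 CPM (Fgf11). Of 36 chemokines and inflammatory cytokines, 4 (11.1%, against 4.61% of all genes tested) had an unadjusted p under 0.05, 3 upward and 1 downward. The median of the list was 0.05. The neutrophil chemokine gene Cxcl1 was at 6.35, 7.41, 8.5 and 10.1 CPM untreated and 11.1, 19.6, 19.5 and 10.5 CPM treated (log2 fold change 0.90, adjusted p = 0.999 by edgeR, 0.403 by DESeq2 on 16 libraries and 0.0173 by DESeq2 on 8). The monocyte chemokine gene Ccl7 was at 16.9, 17.6, 20.2 and 22.2 CPM untreated and 20.3, 34.3, 41.7 and 32.2 CPM treated (0.74, adjusted p = 0.999 by edgeR, 0.462 by DESeq2 on 16 libraries and 0.0132 by DESeq2 on 8). Lif, a cytokine of the IL-6 family, was at 15.2, 15.8, 21.7 and 19.8 CPM untreated and 8.48, 12.6, 13.7 and 12.4 CPM treated without overlap in the other direction (-0.62, adjusted p = 0.999 by edgeR, 0.626 by DESeq2 on 16 libraries and 0.0326 by DESeq2 on 8). The 30 interferon-stimulated genes had a median of 0.11, with 3 higher at an unadjusted p under 0.05 (10%, against 4.61% of all genes tested in both directions). Among them was Stat2 at 32.4, 31.7, 32.9 and 32.7 CPM untreated and 38.4, 37.9, 34.9 and 36.9 CPM treated without overlap (0.19, 0.08).

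Most markers of cardiomyocytes, the defining cells of the labelled tissue, were low or near 0 in both groups. Nppa and Ckm had under 10 counts over the 8 libraries, Myh7 and Nppb had 0 counts in all untreated libraries, and 13 of the 28 markers tested reached a mean of 1 CPM. Myh6, the main adult myosin heavy chain, was at 0.367, 0.158, 0.654 and 0.193 CPM untreated and 2.71, 3.81, 0.292 and 10.1 CPM treated (log2 fold change 3.59, standard error 1.29, adjusted p = 0.999 by edgeR, 0.282 by DESeq2 on 16 libraries and 0.0471 by DESeq2 on 8). Treated library 4 was by far the highest and treated library 3 lay within the untreated range. Tnnt2, cardiac troponin T, was at 2.62, 12, 2.71 and 1.73 CPM untreated and 6, 7.06, 3.75 and 14.1 CPM treated and overlapped. Of the 28 markers, 23 were higher, 3 at an unadjusted p under 0.05 (Myh6, Myl2 and Myl3), and the median was 0.65, or 0.29 over the 13 with at least 1 CPM. The share at that p was 10.7%, against 4.61% of all genes tested in both directions. Atp2a2, the calcium pump SERCA2 that other cells also express, was at 293, 297, 280.2 and 278 CPM untreated and 292, 305, 292 and 289 CPM treated and accounted for most of the summed marker level of 311 to 359.8 CPM untreated and 333 to 387 CPM treated. Nkx2-5, the cardiac homeobox gene next to Swhtr, was at 0, 0.263, 0.0467 and 0.0482 CPM untreated and 0, 0, 0.0417 and 0.336 CPM treated, and no fold change is given at this level. The 26 cardiac transcription factors tested, several of which stromal cells express, had a median of -0.06 with 2 higher at an unadjusted p under 0.05, Srf (0.17) and Tbx3 (0.54).

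Most fibroblast and macrophage markers were at a mean of at least 1 CPM, 21 of 21 and 25 of 27. Of 21 fibroblast markers, 14 were higher with a median of 0.13 and 0 passed the adjusted p. At an unadjusted p under 0.05 there were 3, all higher (14.3%, against 4.61% of all genes tested in both directions). Cd34, a sialomucin of adventitial fibroblasts and endothelium, was at 181, 155, 158 and 185 CPM untreated and 202, 239.9, 219 and 255 CPM treated without overlap (log2 fold change 0.43, standard error 0.08, adjusted p = 0.182 by edgeR, 0.00335 by DESeq2 on 16 libraries and 0.00137 by DESeq2 on 8). Gsn, gelsolin, was at 1131, 973, 771 and 755 CPM untreated and 1623, 1656, 1067 and 1156 CPM treated, with overlap (0.60, 0.19). Markers of activated fibroblasts and myofibroblasts were lower for 15 of 20, with a median of -0.19. Of the 20, 3 had an unadjusted p under 0.05 (15%, against 4.61% of all genes tested), 1 upward and 2 downward. The integrin gene Itga11 was at 181, 190.4, 226 and 251 CPM untreated and 153, 119, 164 and 171 CPM treated without overlap (-0.48, 0.16). Comp, a cartilage and tendon matrix protein, was at 38.3, 14.7, 23.7 and 13.2 CPM untreated and 68.1, 117, 45.3 and 42.7 CPM treated without overlap in the other direction (1.60, 0.59). Of 27 macrophage and monocyte markers, 18 were lower with a median of -0.07, and 4 had treated libraries wholly below the untreated ones (against 1.9% of all genes tested). These were Ms4a7 and the 3 chains of complement C1q, C1qa, C1qb and C1qc. C1qa was at 504, 491, 510.3 and 511 CPM untreated and 406, 323, 387 and 389 CPM treated (log2 fold change -0.42, standard error 0.33 with the spread of all 16 libraries, adjusted p = 0.999 by edgeR, 1 by DESeq2 on 16 libraries and 1.02e-05 by DESeq2 on 8). By edgeR on the 8 WT libraries its adjusted p was 0.0337. Cd74, the invariant chain of MHC class II, was the only macrophage marker at an unadjusted p under 0.05, at 0.945, 1.21, 1.31 and 0.434 CPM untreated and 4.2, 1.49, 1.17 and 19.4 CPM treated, and treated library 4 held most of it.

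**Figure D5:**
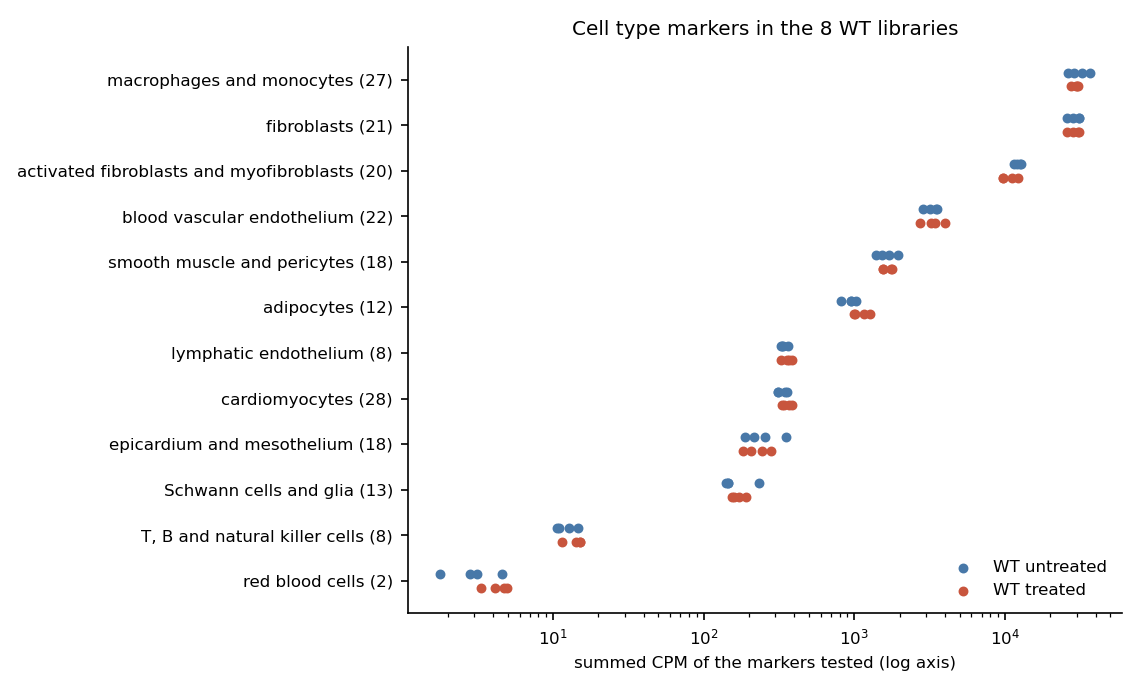
Summed CPM (x axis, log scale) of the markers tested for each cell type (y axis, number of markers in parentheses), 1 point per library, for untreated (blue) and treated (red) WT slices. The untreated and treated points overlap on every line, and levels are not comparable between lines, since the marker genes differ in number and length.

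Other cell types gave no list with an adjusted p under 0.05 for any member. All 12 adipocyte markers were higher, with a median of 0.36, but 0 had an unadjusted p under 0.05 and 0 had groups that did not overlap. Adipoq, adiponectin, was at 50.8, 49.5, 23.1 and 30.1 CPM untreated and 81, 85.7, 53.9 and 37.1 CPM treated (log2 fold change 0.75, standard error 0.35). Summed adipocyte markers were at 812 to 1029.6 CPM untreated and 1000.5 to 1264 CPM treated, and their part in the results above was not tested. Fabp4, which is on the endothelial list too, accounted for most of that sum, at 532 to 658 CPM untreated and 609 to 708 CPM treated. Of 18 markers of epicardium and mesothelium, 15 were lower with a median of -0.23, which single libraries decided. It was 0.87 without untreated library 2, 0.02 without treated library 2 and -1.10 without treated library 1. Krt19, a keratin of these cells, was at 2.15, 4.36, 3.08 and 3.23 CPM untreated and 1.71, 0.702, 0.584 and 1.35 CPM treated without overlap (-1.56, standard error 0.36, adjusted p = 0.905 by edgeR, 0.0354 by DESeq2 on 16 libraries and 0.00499 by DESeq2 on 8). It did not follow the swings that several other markers shared, such as Upk3b (0.367, 19.5, 5.51 and 0.145 CPM untreated, 12, 0.526, 6.92 and 1.3 CPM treated). Which cells its fall came from was not tested. The summed markers were at 189 to 355 CPM untreated and at 183 to 279 CPM treated. Medians were 0.03 for 22 markers of blood vascular endothelium, 0.05 for 18 of smooth muscle and pericytes, -0.12 for 8 of lymphatic endothelium (0.14 without untreated library 2) and -0.02 for 13 of Schwann cells and glia. In the lymphatic list Lyve1, a hyaluronan receptor that some macrophages also carry, was at 11.5, 14.5, 8.17 and 8.09 CPM untreated and 5.68, 5.96, 5.8 and 6.52 CPM treated without overlap (log2 fold change -0.82, standard error 0.34, adjusted p = 0.999 by edgeR, 0.7 by DESeq2 on 16 libraries and 0.00831 by DESeq2 on 8). Lymphocyte and red blood cell markers were low. Of 17 markers of T, B and natural killer cells 8 were tested, and Cd4, the T helper cell coreceptor, was at 1.68, 2, 3.18 and 4.63 CPM untreated and 0.541, 1.45, 1.5 and 1.39 CPM treated (-1.23, 0.39), while of 9 red blood cell markers 2 were tested and all 4 globin genes listed had under 10 counts.

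The WT response was then compared with that of Swhtr null slices, which share no library with it, by the interaction term of the same fit. Over 22232 genes, 0 (0%) had an adjusted p under 0.05 and a difference beyond the fold threshold by edgeR, and DESeq2 on the 16 libraries also called 0. At an unadjusted p under 0.05 there were 1534 genes (6.9%). The median size of the log2 fold change among genes of at least 1 CPM was 0.078 in WT and 0.147 in Swhtr null slices, with the same median standard error of 0.114. Over these 14211 genes the log2 fold changes of both genotypes had a Pearson correlation of 0.36, given as a description, since genes are not independent. Of the 358 genes of at least 1 CPM that were higher in WT slices at an unadjusted p under 0.05, 292 (81.6%) were also higher in Swhtr null slices. Of the 339 lower genes, 280 (82.6%) were also lower, beside 59.2% with the same sign over all 14211 genes. As in WT slices, every treated Swhtr null library was deeper than every untreated one (at least 21453891 against at most 21436742 counts). The part of depth in the shared signs was not tested. Smad7 had log2 fold changes of -0.48 in WT and -0.59 in Swhtr null slices (standard errors 0.06 and 0.06, unadjusted p of the difference = 0.208), and Ddit4 had -0.64 and -0.81 (0.251). The hypoxia-inducible list had medians of -0.24 and -0.48, and 3 of its 35 genes reached an unadjusted p below 0.05 by the interaction.

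Some of the leading WT genes had a small p for this difference, beside 6.9% of all genes tested at an unadjusted p under 0.05. The genes were picked by their WT values, and the same WT libraries enter the difference. That choice alone favours a small p, so the values are given as a description. Ctsk had 0.82 (log2 fold change) in WT and 0.13 in Swhtr null slices (standard errors 0.16 and 0.15, unadjusted p of the difference = 0.00671). By the same 3 values (WT, Swhtr null, unadjusted p of the difference in parentheses), C1qtnf12 had 0.26 and -0.09 (0.0025), F10 had 1.71 and -0.33 (0.00272), and Gabra3 had -0.70 and 0.26 (0.00188). Lyve1 had -0.82 and 0.58 (0.0108), Fbxo44 had -0.73 and -0.04 (0.0174) and Naaa had 0.54 and 0.10 (0.0266). The adjusted p of each of these differences was at least 0.713 by edgeR without a block, so none held over all genes tested in that fit. Ribosomal protein genes had a median of -0.09 in WT and -0.38 in Swhtr null slices, and 39 of the 43 differed at an unadjusted p under 0.05, again with no adjusted p under 0.713.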

How the data were processed

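RNA of WT and Swhtr null heart slices, 4 libraries per group, was sequenced as paired ends. The authors deposited raw counts per Ensembl gene (GRCm38), made with STAR and GenomicAlignments, per the methods and labels. The labels name a TruSeq kit and the methods a kit that depletes ribosomal RNA, and the strand setting is not given in the sources used here. The counts were used as deposited. GENCODE M21 gave symbols and positions.

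edgeR 4.0.16 (R 4.3.3) was run with TMM scaling and a robust quasi-likelihood fit of 4 group means over all 16 libraries (12 residual degrees of freedom) on genes with at least 10 counts over the 8 WT libraries. WT treated was tested against untreated, and the response against that of Swhtr null slices by the interaction. DESeq2 1.42.0 and limma 3.58.1 voom, other filters and scaling, a block on replicate numbers and leaving out single libraries were alternatives. CPM are TMM-scaled with no prior. The scripts were tested on simulated data. Counting error is large for genes with few reads, such as those under 1 CPM. No 2 WT libraries agreed within sampling noise (chi-square per degree of freedom at least 7.62).

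The comparison, gene lists and rules were chosen with earlier results of these data known. Named were genes with adjusted p under 0.05 or called by DESeq2, the 12 higher and 12 lower genes of at least 50 mean counts with non-overlapping groups and the smallest p, up to 4 members per list with the smallest p and at least 1 CPM, and Nkx2-5. Other members named to describe a list were chosen after their values were seen. Promoters followed the rule given with them. Some genes that the rule names are not reported here.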

Additional observations from a re-analysis of the deposited data

Results flagged for a closer look

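Of 326 groups of 4 libraries (163 named genes, untreated and treated), 17 had a library whose gap to the others exceeded Dixon's 95% critical value, and chance alone gives about 1 in 20. In 7 of the 17 it was treated library 4. That library was highest for Depp1 (21.9 CPM, others 7.32 to 9.56), the repressor gene Bhlhe40 (154 CPM, others 126 to 130.1), the stress-response phosphatase subunit gene Ppp1r15a (39.1 CPM, others 30.6 to 31.9) and the BMP receptor gene Bmpr2 (127 CPM, others 112 to 115). It was also highest for the cardiac myosin light chain gene Myl2 (4.75 CPM, others 1.04 to 1.5), Cd74 (19.4 CPM, others 1.17 to 4.2) and Nkx2-5 (0.336 CPM, others 0 to 0.0417).

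Depp1 also stood out in untreated library 4 (46.6 CPM, others 26.5 to 29.3). Untreated library 3 was lowest for Bag3 (80.1 CPM, others 86.3 to 87.5) and for the T-box gene Tbx3 (2.71 CPM, others 3.41 to 3.47). Untreated library 2 was lowest for Nfe2l2, which encodes NRF2 (175 CPM, others 189.5 to 191), and highest for the Schwann cell marker Cdh19 (11.9 CPM, others 6.65 to 7.52). Untreated library 1 was highest for the pericyte marker Rgs5 (97.8 CPM, others 30.8 to 41.7). Treated library 1 was highest for Nptxr (11.2 CPM, others 10.2 to 10.3) and lowest for the lymphatic marker Mmrn1 (3.7 CPM, others 4.82 to 4.92) and Cd4 (0.541 CPM, others 1.39 to 1.5). Treated library 3 was highest for Sqle (40.2 CPM, others 37.5 to 37.9).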

How the results depend on the processing

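Genes called in WT slices numbered 0 by edgeR, limma voom, DESeq2 size factors in edgeR and filterByExpr. They numbered 9 by DESeq2 on 16 libraries, 1 without a filter, 1 by edgeR and 31 by DESeq2 on the 8 WT libraries, and 0 to 3 when a WT library was left out. Genes with an adjusted p under 0.05 numbered 1 (Smad7) by edgeR, 14 by DESeq2 on 16 libraries, 4 without a filter, 3 by edgeR and 74 by DESeq2 on the 8 WT libraries, and 0 to 5 with a WT library left out. The count was 0 without untreated library 3 or treated library 1, and 5 without treated library 4, where Fosb, Ddit4 and Depp1 were called. Genes with an unadjusted p under 0.05 numbered 676 (without treated library 2) to 1188 with a WT library left out. The cause of these differences was not tested. Under the other scaling no named gene and no list median changed sign. Leaving out a WT library turned the sign of 2 to 9 of the 36 list medians, most of them near 0, and of 4 genes or fewer.

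The groups share replicate numbers, which paired the WT libraries only in part, and no label ties them to a mouse. The correlation of same-numbered deviations was -0.08, -0.06, 0.21 and 0.38 for numbers 1 to 4, so libraries 3 and 4 correlated best with their own number, while untreated 2 did so with treated 1 (0.43) and untreated 1 with treated 2 (0.25). With a replicate block on all 16 libraries, 15 genes were called, 31 had an adjusted p under 0.05, and the difference from Swhtr null slices was called for 27 genes. With a replicate block on the 8 WT libraries, 31 were called, 91 had an adjusted p under 0.05 and 1766 an unadjusted p under 0.05.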
